A study of Homo sapiens with 12 samples.

Results

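The EGF family ligands are the secreted or membrane-anchored growth factors that switch on the ERBB receptor tyrosine kinases, and their transcripts were followed here in A375 cells, an established human melanoma line with mutant BRAF. The 8 members were taken as a named list of genes, HBEGF, AREG, EREG, TGFA, BTC, EPGN, NRG1 and NRG2, and all 8 were found by symbol among the 58347 genes of the count files. Poly(A) RNA was sequenced after 8 h in 4 groups of 3 samples, and every group was one cell line in culture, listed at 5 µM of its agent: DMSO as the vehicle, tretinoin, vemurafenib, or vemurafenib together with tretinoin. Whether the combination held 5 µM of each drug is not stated in the labels. Vemurafenib blocks mutant BRAF, and tretinoin (all-trans retinoic acid) activates the retinoic acid receptors. The labels number the replicates but do not say that they were separate cultures, so that the P values measure the spread between samples, which may be technical.

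Each of these ligands carries an EGF-like fold and is made as a precursor in the membrane, from which metalloproteinases of the ADAM family release the active factor. TGFA and AREG bind EGFR, HBEGF, BTC and EREG bind EGFR and ERBB4, EPGN acts on EGFR, and the neuregulins NRG1 and NRG2 bind ERBB3 and ERBB4. The receptors signal through RAS, RAF, MEK and ERK, the same cascade that mutant BRAF drives, and several ligand genes are known targets of ERK signalling, so that ligand and cascade can form a loop. In melanoma, ERBB receptors are known for their part in the response to BRAF inhibitors.

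Sample totals lay between 13510235 and 21534377 counts. At this depth 6 of the 8 ligands passed the filter on low counts and were tested among 16740 genes, and EREG and EPGN did not pass, with at most 10 and 5 counts in any sample. AREG passed only through its DMSO and tretinoin samples, so that its calls, ranks and part in the ligand medians depend on that filter. It had 2 to 5 counts a sample with vemurafenib and 5 to 12 with the combination. Levels are given as counts scaled to library size (CPM) with the TMM adjustment, and, where ligands are compared with each other, as the same values per kilobase of exon (FPKM). A gene was called where the adjusted P of edgeR's quasi-likelihood test (Benjamini-Hochberg over all 16740 genes) was below 0.05. All 6 ERK output genes were lower with vemurafenib (DUSP6 67.3-fold), beside 26.3% of all genes tested. With tretinoin 4 of 6 retinoid-response genes were higher (DHRS3 7.52-fold), beside 5.68% of all genes called in either direction, and RARB was not called (adjusted P = 0.1007). The retinoid-response genes also moved with vemurafenib alone, where 2 rose (DHRS3 3.34-fold, RARB 6.96-fold) and 3 fell, so they do not mark tretinoin alone. Tretinoin replicate 1 stood apart from the other replicates of its group (chi-square per degree of freedom of 21.4 and 24.4, against 2.69 between the other replicates), and the fitted results with tretinoin that the text turns on are also given without it. In that fit 3 of the 6 retinoid-response genes were called higher (DHRS3 7.83-fold), beside 523 of all 17119 genes tested called higher and 353 lower.

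Some melanocyte lineage markers had few or no counts, and whether the counting, which ignored strand, lowered them was not tested. A count of 0 is therefore not read as absence of the RNA. Of 9 listed, SOX10 had 0 counts in every sample, TYR at most 1, DCT at most 18 and MLANA at most 19, and these 4 were not tested. With vemurafenib 2 of the 5 tested rose, the lineage regulator MITF 1.85-fold (adjusted P = 1.25e-06) and the pigment enzyme TYRP1 5.01-fold on 5 to 45 counts a sample (adjusted P = 1.093e-05), and none fell. The summed FPKM of the 9 was 9.16 to 10.4 with DMSO, 8.69 to 10.5 with tretinoin, 12 to 12.9 with vemurafenib and 11.8 to 12.7 with the combination. Of 4 listed markers of undifferentiated melanoma, 3 fell with vemurafenib, AXL 1.3-fold, NGFR 1.59-fold and EGFR, SOX9 was not called, and none rose. Beside both lists, 26.4% of all genes tested were called higher and 26.3% lower with vemurafenib. Their summed FPKM was 81.2 to 99.2 with DMSO, 85.6 to 106 with tretinoin, 65.9 to 70 with vemurafenib and 61.9 to 68.3 with the combination. The part of both lists in the ligand results was not tested.

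Promoter sequences are shown for AREG, HBEGF and EREG, whose counts dropped with vemurafenib. Each has 1 RefSeq start, and its window (GRCh38.p14) begins outside annotated transcripts. TGFA and NRG2, which also fell, have 2 starts each and are not shown. The letters just before a start are where factors downstream of ERK and of the retinoic acid receptors can bind. Each line runs 5′ to 3′ on the gene's own strand up to the first annotated base, and capitals mark a match to a searched motif.
AREG, chr4:74444886-74445133, plus strand: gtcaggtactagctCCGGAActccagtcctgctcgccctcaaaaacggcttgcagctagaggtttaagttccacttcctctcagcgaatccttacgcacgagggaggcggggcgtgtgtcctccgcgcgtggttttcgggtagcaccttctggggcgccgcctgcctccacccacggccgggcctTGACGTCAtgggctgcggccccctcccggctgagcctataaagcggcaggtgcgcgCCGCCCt
HBEGF, chr5:140346632-140346853, minus strand: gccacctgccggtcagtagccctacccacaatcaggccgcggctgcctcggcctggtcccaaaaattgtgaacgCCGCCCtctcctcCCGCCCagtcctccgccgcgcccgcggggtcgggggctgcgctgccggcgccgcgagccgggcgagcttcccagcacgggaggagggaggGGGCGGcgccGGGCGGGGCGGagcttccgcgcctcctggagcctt
EREG, chr4:74364895-74365142, plus strand: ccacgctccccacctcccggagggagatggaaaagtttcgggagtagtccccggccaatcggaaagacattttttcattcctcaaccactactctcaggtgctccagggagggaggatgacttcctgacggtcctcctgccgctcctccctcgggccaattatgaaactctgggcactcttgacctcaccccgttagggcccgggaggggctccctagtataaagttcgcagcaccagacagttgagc

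The windows searched ran from 250 bases before to 30 after the RefSeq start, on both strands, for the ligands other than NRG1. The AREG window held the cAMP response element TGACGTCA 65 bases before the start, the ETS core CCGGAA at -236 and 1 SP1 box (GGGCGG or its reverse CCGCCC). The HBEGF window held 5 SP1 boxes, of which the last pair overlap by a base, and the EREG window held none of the motifs. Among 35116 RefSeq promoters the cAMP response element was in 1.85%, the ETS core in 16.6% and an SP1 box in 44.1%. The BTC window and both NRG2 windows held 1 SP1 box each, and the EPGN window held none of the motifs. The start of TGFA is annotated at more than 1 place, and its upstream window held 3 SP1 boxes and its downstream window an ETS core at -208. No ligand window held the AP-1 site (TGACTCA or TGAGTCA, in 4.73% of promoters), the E-box CACGTG (6.94%) or the AGGTCA direct repeats spaced by 5 or 2 bases (each in 0.00285%), which says only that these letters were absent from these windows.

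In DMSO-treated cells TGFA was the most abundant ligand transcript per length, at 37.9 ± 1.1 FPKM (SD, n = 3). AREG followed at 6.31 ± 1.19 FPKM and HBEGF at 6.01 ± 0.592 FPKM, a difference within their SDs. NRG2 stood at 1.67 ± 0.083 FPKM, and NRG1, BTC, EREG and EPGN each averaged below it, at 0.285, 0.202, 0.0581 and 0.0118 FPKM. TGFA thus made up 72.4% ± 2.36 of the summed ligand FPKM in DMSO, HBEGF 11.4% ± 0.751 and AREG 12% ± 1.77.

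The question of the BRAF inhibitor arm was how vemurafenib alone moved the ligands relative to DMSO. Of the 6 tested ligands, 5 were lower and none was higher: TGFA and AREG, ligands of EGFR, HBEGF, the heparin-binding ligand, and both neuregulins. Of all genes tested, 26.3% were called lower and 26.4% higher in that comparison. The median log2 fold change of the 6 ligands was -1.22, against 0.02 for all genes tested.

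TGFA, an autocrine growth factor of many tumours, had 183, 187 and 194 CPM in the DMSO samples and 30.1, 29.2 and 25.4 CPM in the vemurafenib samples. The groups were far apart, with every vemurafenib sample below every DMSO sample. The fall was 6.66-fold (log2 fold change -2.74 ± 0.09 SE, adjusted P = 1.154e-13), which placed TGFA 88th from the lowest of the 16740 genes by log2 fold change. AREG, the ligand amphiregulin, had 8.25, 12.1 and 10.9 CPM with DMSO and 0.104, 0.144 and 0.3 CPM with vemurafenib. In counts, AREG went from 128, 179 and 206 to 2, 3 and 5, so that the treated level rested on 10 counts in all. The fitted fall was 56.7-fold (log2 -5.83 ± 0.32, adjusted P = 8.575e-11), the 6th lowest log2 fold change of all genes tested. With at least 10 counts required in every sample AREG was not tested, and 4 ligands were called with vemurafenib. As a ratio of summed counts adjusted for library size, vemurafenib over DMSO was 0.0169 with a 95% counting interval of 0.00807 to 0.0314.

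HBEGF, which needs heparan sulfate for full activity, had 16.4, 20 and 17.9 CPM with DMSO and 4.88, 5.53 and 5.29 CPM with vemurafenib. The groups did not overlap, and the fall was 3.45-fold (log2 -1.79 ± 0.13, adjusted P = 4.492e-09). The edgeR 95% intervals of the log2 fold changes of HBEGF (-2.07 to -1.51), TGFA (-2.93 to -2.54) and AREG (-6.49 to -5.16) did not overlap each other. The AREG interval is too narrow, since as a fold (0.0111 to 0.0279) it lies within the interval from counting error alone. DESeq2 without shrinkage gave AREG -5.89 with an SE of 0.50. EREG, epiregulin, is the neighbour of AREG on chromosome 4 and had 6, 2 and 9 counts with DMSO and 1, 2 and 0 counts with vemurafenib. Its ratio of summed counts, 3 over 17, was 0.153 after adjustment for library size, with a 95% counting interval of 0.0288 to 0.53, and in an edgeR fit with no count filter its log2 fold change was -2.56 ± 0.87 (adjusted P = 0.01913 over 41806 genes). The counting intervals cover counting error only, not the spread between samples.

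The neuregulins moved less. NRG2 had 7.15, 7.9 and 7.55 CPM with DMSO and 4.93, 4.23 and 5.83 CPM with vemurafenib, a 1.52-fold fall with no overlap (log2 -0.6 ± 0.14, adjusted P = 0.001608). NRG1 had 2.96, 3.65 and 3.06 CPM with DMSO and 1.56, 2.21 and 2.4 CPM with vemurafenib, a 1.57-fold fall (log2 -0.65 ± 0.21, adjusted P = 0.01418). The NRG1 groups did not overlap either, but its call was lost when the libraries were scaled by total counts alone (log2 -0.45, adjusted P = 0.07739), without DMSO replicate 2 (adjusted P = 0.05652) and without vemurafenib replicate 1 (adjusted P = 0.07701). BTC, betacellulin, was the tested ligand that did not fall: it had 0.516 to 0.608 CPM with DMSO and 0.519 to 1.26 CPM with vemurafenib, on 8 to 21 counts a sample. Its groups overlapped, and the log2 fold change of 0.61 had a 95% interval of -0.27 to 1.49 (adjusted P = 0.2336). EPGN, epigen, had 1, 0 and 0 counts with DMSO and 0, 0 and 2 with vemurafenib, too few for a comparison at this depth.

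**Figure D1:**
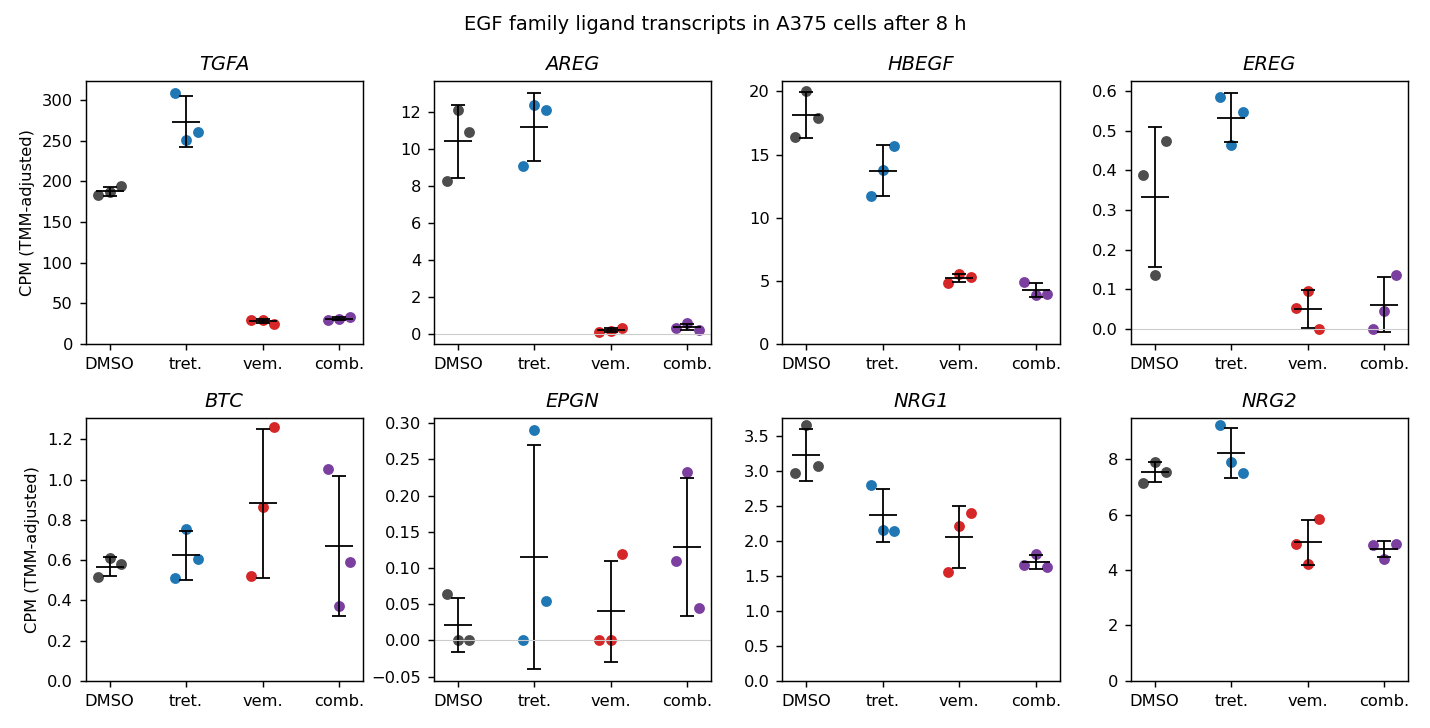
TMM-adjusted CPM of the 8 ligands (vertical axis, a separate linear scale for each gene) in the 4 treatment groups. Points are samples, horizontal bars the means and error bars the SD of 3 samples. TGFA, AREG and HBEGF sit low in every sample that received vemurafenib, alone or with tretinoin, whereas the BTC and EPGN samples overlap between groups.

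The change in makeup can be read per length. The ligand FPKM sum was 52.4 ± 2.6 with DMSO, 68.8 ± 4.76 with tretinoin, 9.16 ± 0.09 with vemurafenib and 9.47 ± 0.255 with the combination. Every vemurafenib-treated sample, at 9.07 to 9.72, was below every DMSO sample, at 49.4 to 54. Within the smaller sum TGFA still held the largest share, 62% ± 4.97 with vemurafenib and 66.7% ± 3.17 with the combination. AREG went from 12% of the sum to 1.21% ± 0.701 with vemurafenib, while the NRG2 share went from 3.18% ± 0.0721 to 12.1% ± 2.06 and the HBEGF share from 11.4% to 18.9% ± 1.1. The larger NRG2 and HBEGF shares were shares of a smaller sum, since both genes had fallen in CPM.

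**Figure D2:**
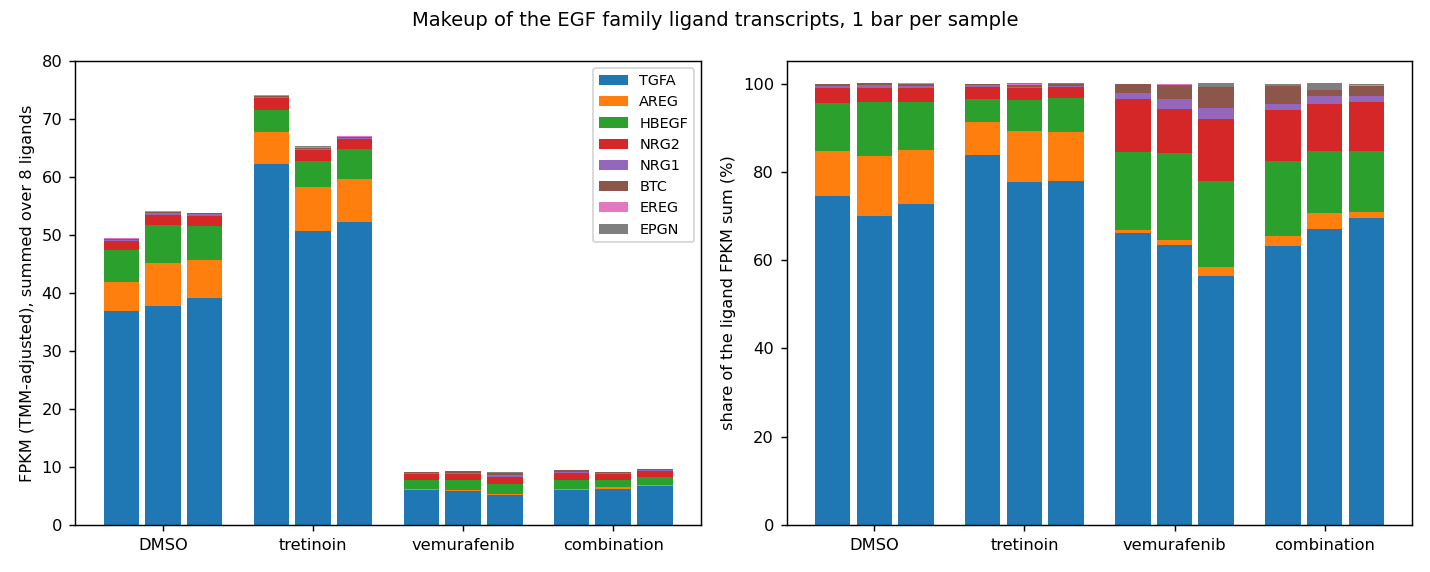
Ligand FPKM stacked by gene, 1 bar per sample, as absolute TMM-adjusted FPKM (left panel) and as a percentage of each sample's ligand sum (right panel). The sum lies between 49.4 and 74.2 FPKM without vemurafenib and between 9.07 and 9.72 FPKM with it, and the AREG share is smallest in the vemurafenib and combination samples.

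Tretinoin alone raised the ligand FPKM sum, which was 65.2 to 74.2 against 49.4 to 54 with DMSO, and most of that sum was TGFA. Of the 6 tested ligands, 1 was called, TGFA, beside 5.68% of all genes tested called in either direction. At an unadjusted P below 0.05 (edgeR) there were 3, TGFA, HBEGF and NRG1. The share of all genes at that unadjusted level was not computed, so this count is not read as a result. TGFA had 309, 251 and 260 CPM with tretinoin against 183, 187 and 194 CPM with DMSO. All 3 tretinoin samples were above all DMSO samples, and the rise was 1.45-fold (log2 0.54 ± 0.08, adjusted P = 0.0005744). Without tretinoin replicate 1, the highest of the TGFA samples, the rise was 0.44 ± 0.07 on the log2 scale (adjusted P = 7.246e-05).

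HBEGF had 11.7, 13.8 and 15.7 CPM with tretinoin against 16.4, 20 and 17.9 CPM with DMSO. The samples did not overlap, but the log2 fold change of -0.39 ± 0.12 did not pass the threshold (adjusted P = 0.06276). It passed with no count filter (adjusted P = 0.03925) and without tretinoin replicate 3 (adjusted P = 0.0288), and without tretinoin replicate 1 it was -0.30 (adjusted P = 0.1634). NRG1 likewise had 2.79, 2.15 and 2.14 CPM, each below the DMSO samples, with a log2 fold change of -0.46 ± 0.21 that was not called (adjusted P = 0.1923, and 0.1721 without tretinoin replicate 1). AREG, NRG2 and BTC were not called without that replicate either. For AREG (95% interval of the log2 fold change -0.24 to 0.47), NRG2 (-0.17 to 0.40) and BTC (-0.80 to 1.10) the tretinoin and DMSO samples overlapped. EREG had 8, 8 and 10 counts with tretinoin against 6, 2 and 9 with DMSO, a ratio of 1.53 with a counting interval of 0.801 to 3.01.

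In the combination, the fall seen with vemurafenib was kept by the same 5 of 6 ligands relative to DMSO, with 26.5% of all genes tested called lower and 27.1% higher. This comparison used the same DMSO samples as the single drugs. The median log2 fold change of the tested ligands was -1.51, against 0.03 for all genes. TGFA had 29.8, 30.7 and 33.6 CPM in the combination, a 6-fold fall (log2 -2.58 ± 0.09, adjusted P = 1.64e-13). AREG had 0.33, 0.557 and 0.226 CPM, on 6, 12 and 5 counts, a 27.5-fold fall (log2 -4.78 ± 0.27, adjusted P = 1.407e-10). Here too the fitted interval as a fold, 0.0246 to 0.054, lay within the counting interval of 0.0224 to 0.0542. In HBEGF the combination samples, at 4.9, 3.9 and 3.98 CPM, were again below all DMSO samples, and the fall was 4.27-fold (log2 -2.09 ± 0.13, adjusted P = 7.138e-10). The neuregulins fell by less, NRG1 1.89-fold (adjusted P = 0.001339) and NRG2 1.59-fold (adjusted P = 0.0006211). EREG had 0, 1 and 3 counts, a ratio to DMSO of 0.188 with a counting interval of 0.0459 to 0.575, and BTC was not called (log2 0.20 ± 0.43).

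Whether tretinoin changed the ligands in the presence of vemurafenib was read from the combination against vemurafenib. None of the 6 tested ligands was called by edgeR, where 4.47% of all genes tested were called in either direction, and 0 by DESeq2. At an unadjusted P below 0.05 (edgeR) there were 0 as well, a level at which the share of all genes was not computed. The samples of the groups overlapped for all 8 ligands. For TGFA the log2 difference was 0.15 (95% interval -0.04 to 0.34), and for HBEGF it was -0.31 (-0.62 to 0.01). AREG was 2.07-fold higher in the fitted values, but the interval of its log2 difference, -0.18 to 2.27, was wide (adjusted P = 0.4615), and the counts behind it were 23 against 10. The intervals for NRG1 (-0.73 to 0.19), NRG2 (-0.37 to 0.24) and BTC (-1.23 to 0.42) also held 0.

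Against tretinoin alone, the combination was lower in 4 of 6 tested ligands, TGFA, AREG, HBEGF and NRG2, beside 25% of all genes tested called lower and 24.1% higher. TGFA differed 8.71-fold (log2 -3.12 ± 0.09, adjusted P = 1.819e-14), and its tretinoin samples lay above its DMSO samples. AREG differed 29.8-fold, HBEGF 3.25-fold and NRG2 1.72-fold. All combination samples were also below all tretinoin samples for NRG1, with a log2 fold change of -0.46 that was not called (adjusted P = 0.09402), and for EREG, with 4 counts against 26. Without tretinoin replicate 1 the same 4 ligands were called, TGFA at a log2 of -3.03, AREG at -5.02, HBEGF at -1.80 and NRG2 at -0.70.

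The test of the difference itself, the log2 effect of tretinoin in the presence of vemurafenib minus its effect in the absence, called none of the 6 ligands by edgeR and 0 by DESeq2, beside 0.806% of all genes tested. At an unadjusted P below 0.05 it held 1 ligand, TGFA, and the share of all genes at that level was not computed. The TGFA rise with tretinoin was 0.54 without vemurafenib and 0.15 with it, a difference of -0.39 ± 0.12 (edgeR, adjusted P = 0.1637). Without tretinoin replicate 1 that difference was -0.29 ± 0.10 (edgeR, adjusted P = 0.1547), and no ligand was called. From high to low, the TGFA order was therefore tretinoin, DMSO, and then the combination and vemurafenib, which did not differ beyond their spread. For AREG the DMSO and tretinoin groups did not differ beyond their spread, nor did vemurafenib and the combination, and the pairs lay far apart. HBEGF ran from DMSO over tretinoin to vemurafenib and the combination, with the steps from DMSO to tretinoin and from vemurafenib to the combination not called.

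**Figure D3:**
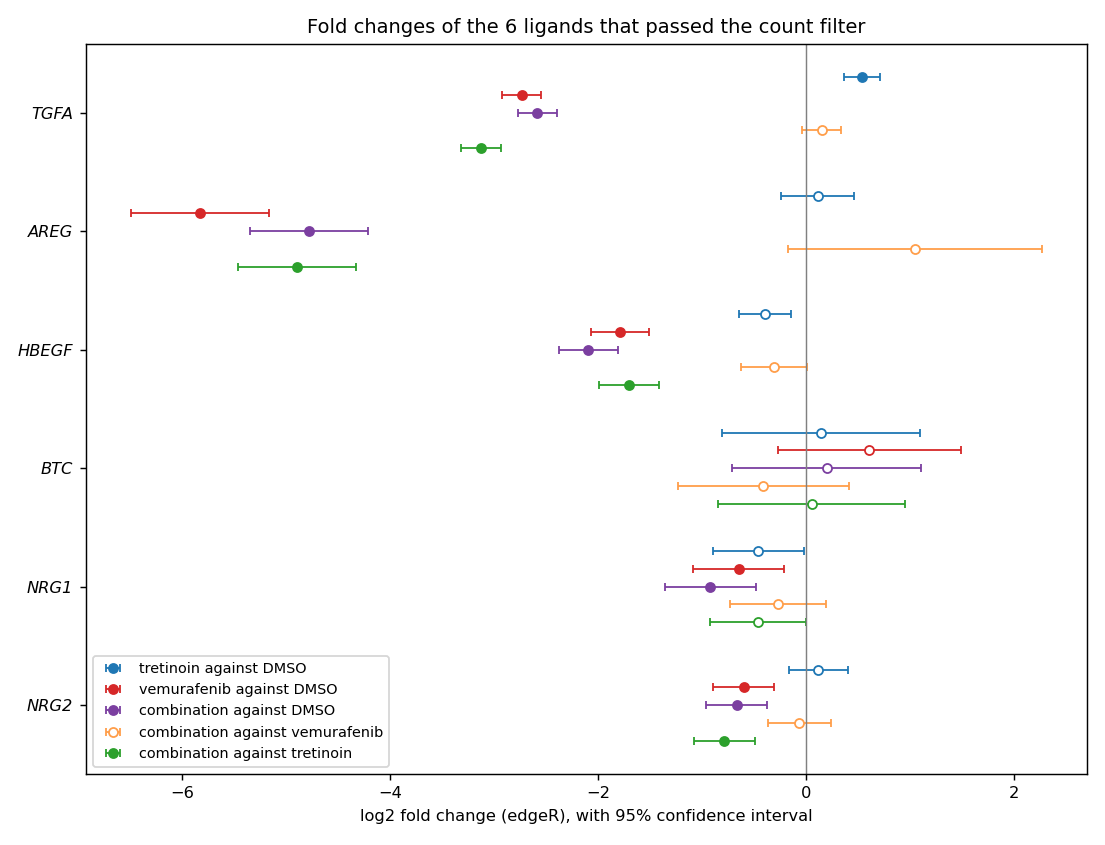
Log2 fold changes (horizontal axis) of the 6 tested ligands in 5 comparisons, with 95% confidence intervals from edgeR. The AREG intervals against DMSO for vemurafenib and the combination are narrower than counting error alone gives. Filled points passed an adjusted P of 0.05 and open points did not. The comparisons of groups with vemurafenib against groups without it (DMSO or tretinoin) are shifted to the left for TGFA, AREG and HBEGF, whereas all intervals of the combination against vemurafenib reach 0.

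The ligand genes lie in clusters that allow a look at position. EPGN, EREG, AREG and BTC lie within 486 kb of chromosome 4, EPGN from 74308473 to 74315307, EREG from 74365143 to 74388751, AREG from 74445134 to 74455009 and BTC from 74744759 to 74794686 (GRCh38). Of the 6 annotated genes there, only AREG and BTC had enough counts to be tested, and AREG fell whereas BTC was not called. NRG2 (139846779 to 140043299) and HBEGF (140332843 to 140346631) bound a stretch of 500 kb on chromosome 5 in which 7 of 11 annotated genes were tested. There, PURA, a nucleic acid-binding protein, fell with vemurafenib (log2 -0.54 ± 0.07), IGIP rose (1.02 ± 0.27) and the long noncoding RNA MALINC1 rose (0.65 ± 0.23), whereas PFDN1, a prefoldin subunit, and CYSTM1 were not called (adjusted P = 0.07518 and 0.237). TGFA lies alone on chromosome 2 (70447280 to 70554193). NRG2 shares 234 exon bases with an annotated antisense gene, which had 0 counts in every sample, and the counting ignored strand, so that reads of the pair cannot be told apart there.

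The receptors moved in different directions from each other. EGFR, the receptor of TGFA and AREG, had 1.7, 1.52 and 1.85 FPKM with DMSO and 0.925, 0.918 and 1.03 FPKM with vemurafenib, a 1.77-fold fall (log2 -0.83 ± 0.12, adjusted P = 1.144e-05). ERBB3, the neuregulin receptor with a weak kinase of its own, rose from 24.7, 20.3 and 23 to 56.5, 57.3 and 52 FPKM, 2.44-fold (log2 1.28 ± 0.08, adjusted P = 9.882e-10). ERBB2, the partner that binds no ligand, rose from 7.21, 6.81 and 7.53 to 13.8, 14.7 and 14 FPKM, 1.97-fold (adjusted P = 1.496e-09). In all 3 genes the vemurafenib and DMSO samples did not overlap, a trait whose share over all genes was not computed. Beside these calls, 26.4% of all genes tested were called higher and 26.3% lower with vemurafenib. ERBB4 had at most 5 counts in any sample and was not tested.

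With tretinoin no receptor was called, beside 5.68% of all genes tested called in either direction. The edgeR adjusted P values were 0.06348 for ERBB3, 0.118 for EGFR and 0.9271 for ERBB2. None was called without tretinoin replicate 1 either (0.1112, 0.4176 and 0.8182). In the combination ERBB2 was lower than with vemurafenib alone, at 11.7, 12.2 and 11.1 FPKM (log2 -0.28 ± 0.06, adjusted P = 0.01428). It was the only receptor called there, beside 4.47% of all genes tested called in either direction. EGFR, at 0.806 to 0.87 FPKM, and ERBB3, at 47.1 to 51.8 FPKM, were not called. The ligand FPKM sum was larger than the receptor FPKM sum in every DMSO sample (49.4 to 54 against 28.7 to 33.6) and smaller in every vemurafenib sample (9.07 to 9.25 against 67 to 72.9). These sums are not a balance of ligands with their own receptors. The ligand sum was mostly TGFA, which binds EGFR, and the receptor sum was mostly ERBB3 (22.7 FPKM with DMSO, 55.3 with vemurafenib). EGFR averaged 1.69 FPKM with DMSO and 0.957 with vemurafenib. EGF itself, a family ligand outside the 8, went the other way from TGFA: it had 0.164 to 0.189 FPKM with DMSO and 0.353 to 0.448 with vemurafenib, on 15 to 57 counts, a 2.35-fold rise (log2 1.24 ± 0.23, adjusted P = 0.0002524). NRG3 and NRG4 had at most 9 and 13 counts and were not tested.

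**Figure D4:**
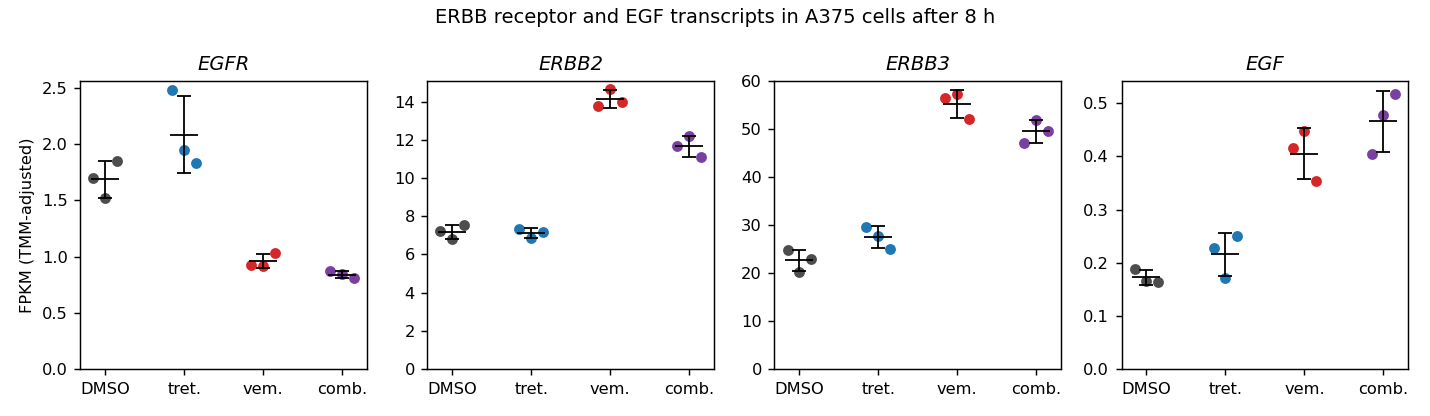
TMM-adjusted FPKM (vertical axis, a separate linear scale for each gene, starting at 0) of EGFR, ERBB2, ERBB3 and EGF in the 4 treatment groups. Points are samples, horizontal bars the means and error bars the SD of 3 samples. EGFR is lower, and ERBB2, ERBB3 and EGF higher, in all samples with vemurafenib.

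The enzymes that release the ligands from the membrane did not move as a block. All 12 listed shedding genes were tested, and with vemurafenib 2 rose and 3 fell, beside 26.4% of all genes tested called higher and 26.3% lower. ADAM17, the main sheddase of TGFA, AREG and HBEGF, rose 1.44-fold (3.28 ± 0.317 to 4.72 ± 0.306 FPKM, adjusted P = 4.821e-05), and RHBDF1, the iRhom that carries ADAM17 to the surface, rose 2.07-fold (adjusted P = 5.008e-08). FURIN, the protease that matures ADAM precursors, fell 1.84-fold (43.4 ± 1.05 to 23.6 ± 0.511 FPKM, adjusted P = 1.473e-08), as did ADAM12 (1.83-fold) and ADAM19 (1.53-fold). ADAM10, the main sheddase of BTC, was not called with vemurafenib (adjusted P = 0.6965). With tretinoin 3 of the 12 rose and none fell, beside 5.68% of all genes tested called in either direction: ADAM19 2.41-fold (adjusted P = 7.313e-06), ADAM12 1.64-fold and RHBDF1 1.27-fold. Without tretinoin replicate 1, ADAM19 (2.24-fold) and ADAM12 (1.52-fold) were still called, and RHBDF1 was not (1.24-fold, adjusted P = 0.05158). ADAM19 is known for the processing of neuregulin, and its rise with tretinoin did not appear in the combination, where its level was 0.962 ± 0.2 FPKM against 1.96 ± 0.253 with DMSO (interaction log2 -1.68, adjusted P = 0.00045, and -1.58 without tretinoin replicate 1, adjusted P = 1.019e-05).

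Of the 7 listed surface partners, 4 fell and 2 rose with vemurafenib, beside 26.3% of all genes tested called lower and 26.4% higher. The fallers were the heparan sulfate carriers SDC4 (1.52-fold) and SDC1 (1.46-fold), CD44 (1.33-fold), and CD9, a tetraspanin that binds the HBEGF precursor (1.23-fold). GPC1, a glypican, rose 1.3-fold and NRP1 1.45-fold. SDC1 fell further in the combination, from 18.1 ± 0.991 FPKM with vemurafenib to 12.7 ± 0.561 FPKM (adjusted P = 0.0002172), and NRP1 rose further, from 6.19 ± 0.274 to 10.6 ± 0.256 FPKM (adjusted P = 7.95e-07). In that comparison 4.47% of all genes tested were called. Tretinoin alone also raised NRP1, 1.62-fold (1.56-fold without tretinoin replicate 1), and its interaction was not called (log2 0.08, edgeR adjusted P = 0.7273). SDC1 was not called with tretinoin alone, and its interaction was called (log2 -0.49, edgeR adjusted P = 0.02677, and -0.53 without tretinoin replicate 1).

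Among 11 tested negative regulators of the receptors, 5 fell and 2 rose with vemurafenib, and among the 10 adaptors and relays 3 fell and 5 rose, where 26.3% of all genes tested fell and 26.4% rose. ERRFI1, the feedback inhibitor MIG6 that binds the EGFR kinase and is itself induced by the pathway, had the largest fall of the list, 6.93-fold (84 ± 6.15 to 12.1 ± 0.229 FPKM, adjusted P = 1.77e-13). SOCS5 fell 1.74-fold, SOCS4 1.42-fold, LRIG1 1.32-fold and PTPN1 1.15-fold, whereas the ubiquitin ligase CBLB rose 2.06-fold and RNF41, which marks ERBB3 for degradation, rose 1.18-fold. Of the adaptors and relays, GAB1 (2.45-fold), SOS1 (1.8-fold), SOS2 (1.74-fold), GAB2 (1.6-fold) and PIK3R1 (1.45-fold) rose, and SHC1 (1.37-fold), GRB2 (1.36-fold) and PTPN11 (1.27-fold) fell. With tretinoin 1 negative regulator fell (ERRFI1, 1.27-fold, adjusted P = 0.03026) and 1 adaptor fell (GAB2, 1.49-fold, adjusted P = 0.003071), beside 5.68% of all genes called in either direction. Both were also called without tretinoin replicate 1 (1.34-fold and 1.45-fold), and SOCS5 was then called as well (1.25-fold lower, adjusted P = 0.02593).

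**Figure D5:**
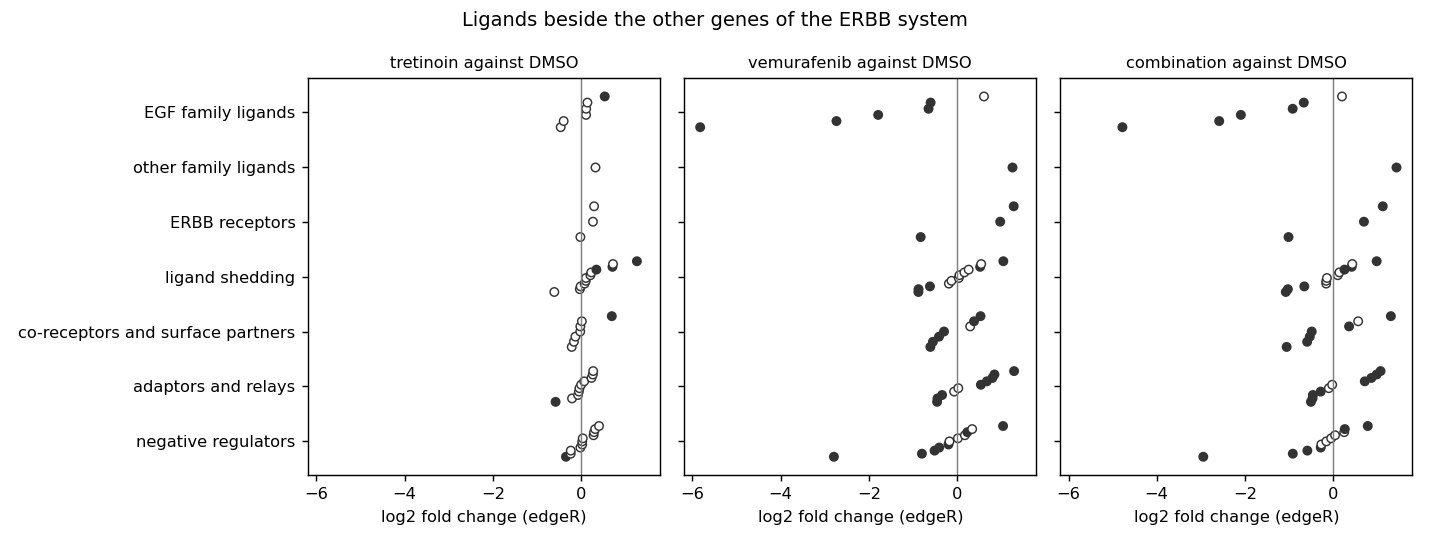
Log2 fold changes against DMSO (horizontal axis, edgeR) of the tested ligands and of the other listed genes of the ERBB system, 1 point per gene and 1 row per list. Filled points passed an adjusted P of 0.05. With vemurafenib, alone or in combination, the ligands lie mostly left of 0, and each other list with more than 1 tested gene holds genes on both sides.

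Genes whose log2 CPM ran most like each ligand over the 12 samples were ranked among 12615 genes. For TGFA these were SLC20A1, a phosphate transporter (Pearson r = 0.998), the cytokine LIF (0.997) and PHC2, a Polycomb subunit (0.997). For AREG they were the immediate-early gene IER2 (0.996), IGFBP3 (0.994) and PVR (0.993), and for HBEGF CHORDC1 (0.994), NSUN2 (0.992) and ATAD3B (0.992). The falls with vemurafenib differed in size, 10.5-fold for LIF, 14.2-fold for IGFBP3 and 1.94-fold for CHORDC1. The samples share the same 4 groups, and 1787 genes had an r of at least 0.9 with TGFA, 1735 with AREG and 1714 with HBEGF, so that such likeness was common. NRG2 had BNC1 (0.975) as its nearest gene and 984 genes at that level, NRG1 had CERS5 (0.941) and 25 genes, and for BTC the nearest gene, ZNF813, reached 0.73 and 0 genes reached 0.9.

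Markers of other cells moved as well. Of 11 such markers (keratinocyte, fibroblast, endothelial and leukocyte), 8 were tested and with vemurafenib 5 rose and 1 fell, against 26.4% and 26.3% of all genes tested. Their summed FPKM was 8.42 to 9.58 with DMSO, 9.08 to 10.9 with tretinoin, 19.5 to 20.5 with vemurafenib and 18 to 21 with the combination, which was more than the ligand sum in every vemurafenib and combination sample. The keratin KRT14 went from 4.83 to 11.4 FPKM with vemurafenib (adjusted P = 7.006e-05), and COL1A1, PDGFRB, LUM and PTPRC also rose. The endothelial marker CDH5 fell 31-fold, from 0.75 to 0.0226 FPKM (adjusted P = 2.018e-09). The keratin KRT5 (adjusted P = 0.4445) and PECAM1 (adjusted P = 0.1193) were not called. KRT1 had 0 counts in every sample and CD68 at most 2, and the part of these markers in the ligand results was not tested. In bulk RNA, fewer cells that make a ligand and less ligand RNA per cell cannot be told apart.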

How the data were processed

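The authors enriched poly(A) RNA, prepared directional libraries (150-base paired-end reads), aligned them with STAR 2.5.3a to GRCh38.p10 and counted fragments on GENCODE 27 genes in union mode without regard to strand. They deposited raw counts per gene, with no normalization, for 12 samples with totals of 13510235 to 21534377. Symbols, positions and exon lengths came from GENCODE 29, which held 58039 of the 58347 gene identifiers.

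Counts were filtered with filterByExpr, normalized by TMM and fitted in edgeR 4.0.16 (R 4.3.3) by glmQLFit with 1 term per group over all 12 samples. glmQLFTest P values were adjusted by Benjamini-Hochberg within each comparison. The SE is the log2 fold change divided by the square root of F. For AREG with vemurafenib it was 0.32, against 0.50 in DESeq2 without shrinkage. Counting intervals are exact (95%). On simulated data with 200 changed genes, 191 were recovered, with 18 false calls. DESeq2 1.42.0, other normalizations and filters, the compared groups alone, a replicate block, an adjusted P of 0.1 and leaving out each sample were the alternatives. All 8 ligands were named by rule, with listed pathway genes, markers and the 3 genes most like each tested ligand (mean log2 CPM of at least 1). The ligands and lists were chosen with earlier results of these data known. No ligand transcript shared 150 or more bases at 98% identity with another gene (blastn 2.17.0). NRG1 coordinates and promoter are not reported here.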

Additional observations from a re-analysis of the deposited data

How the results depend on the processing

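Against DMSO, the number of ligands called was 4 to 6 for vemurafenib and for the combination under every alternative. It was 6 for both with no low count filter in edgeR and in DESeq2 with no shrinkage, and 6 for vemurafenib in DESeq2 with a beta prior. For tretinoin it was 2 in place of 1 at an adjusted P threshold of 0.1 and with no low count filter, and 1 to 2 when samples were left out in turn. The combination against vemurafenib and the interaction held 0 calls in all alternatives. Of 698 values for 36 single-ligand results, 684 kept direction and side of the threshold, 3 lost it, 2 gained it and 9 changed sign. None of the results that changed sign was called. With samples left out in turn, the log2 fold change with tretinoin ranged from -0.02 to 0.24 for AREG and from -0.012 to 0.25 for BTC, that of BTC from -0.24 to 0.49 in the combination and from -0.38 to 0.34 against tretinoin (-0.055 without tretinoin replicate 1), that of NRG2 against vemurafenib from -0.18 to 0.051, and the HBEGF interaction from -0.01 to 0.20. Scaled by total counts, the HBEGF interaction was -0.014. The cause was not tested. The refit of the listed ERBB system genes without tretinoin replicate 1 was chosen after seeing the data.

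Total counts in place of TMM shifted the median of all genes to 0.21 for vemurafenib and 0.19 for the combination (log2), with 6575 genes called higher and 2628 lower for vemurafenib, against 4411 and 4400. TGFA was then -2.54, AREG -5.63 and HBEGF -1.59. The shrunken DESeq2 fit gave AREG -4.28. Same-numbered samples did not deviate together (mean r of -0.03 over 18 pairs, against 0.02 over 36 others), and the replicate block changed no call: 5 ligands were called for vemurafenib and 1 for tretinoin. AREG, BTC, EREG and EPGN are limited by depth.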
